A study of Mus musculus with 6 samples.

Results

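Meiotic recombination genes were followed in primordial germ cells, the precursors of eggs and sperm, that had been made in culture from mouse embryonic stem cells and depleted of Dazl. The 8 genes were Spo11, Mei1, Dmc1, Tex15, Msh4, Msh5, Tex11 and Mlh3, and every array probe bearing one of these names was taken, which gave 12 of the 41174 probes and 8 of the 27677 gene names on the array. The scanner files carried 11 of them under these symbols, and the Dmc1 probe carried the older symbol Dmc1h and was named through its accession NM_010059. Of the 12, 10 were well above background on all 6 arrays. The second Spo11 probe (A_52_P660477) and the third Msh5 probe (A_52_P297836) were not well above background on any array and were not tested.

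All 6 samples were male cells of a mixed C57BL/6 129SV background that carried an Oct4-GFP transgene, and each carried a vector with a tdTomato marker; only cells that showed both colours after differentiation were sorted for RNA. The knockdown samples carried 1 of 2 short hairpin vectors against Dazl and the control samples a control vector, and each of the 3 vectors was measured on 1 array at day 12 and 1 array at day 9 of differentiation. The feeder cells on which the stem cells had been grown were depleted by plating before differentiation began. The cells are a culture model, sorted by the reporter rather than taken from a gonad, and in such bulk RNA fewer cells of a type and less RNA per cell cannot be told apart.

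Meiotic recombination begins when the SPO11 protein cuts both strands of the DNA along the axis of the chromosome, a step that needs MEI1. The cut ends are trimmed to single strands, onto which the strand exchange protein DMC1 is loaded, with TEX15 required for that loading. MSH4 and MSH5 form a pair that stabilises the joined DNA molecules, TEX11 promotes crossing over with them, and MLH3 acts in turning the joined molecules into crossovers. DAZL is an RNA-binding protein of germ cells that acts on mRNAs after transcription and is needed for germ cells to become competent for meiosis.

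Promoter sequences from RefSeq (GRCm38.p6, running 250 bases before and 50 after the annotated start) were matched by symbol for 5 of the 8 genes. Of these, 3 are printed here. Dmc1 is shown because its signal differed least in range among the arrays, and Msh5 and Mlh3 because each has a probe that was lower on every knockdown array than on either control. The Dmc1 sequence is chr15:79605060-79605359 on the minus strand, that of Msh5 is chr17:35046573-35046872 on the minus strand, and that of Mlh3 is chr12:85270550-85270849 on the minus strand. Capitals mark matches to the searched motifs.
Dmc1: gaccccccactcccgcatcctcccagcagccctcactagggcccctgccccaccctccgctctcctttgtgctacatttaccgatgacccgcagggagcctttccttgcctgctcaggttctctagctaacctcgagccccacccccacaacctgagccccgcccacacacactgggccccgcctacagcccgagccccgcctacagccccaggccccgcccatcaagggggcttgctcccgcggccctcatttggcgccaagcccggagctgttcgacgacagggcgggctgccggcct
Msh5: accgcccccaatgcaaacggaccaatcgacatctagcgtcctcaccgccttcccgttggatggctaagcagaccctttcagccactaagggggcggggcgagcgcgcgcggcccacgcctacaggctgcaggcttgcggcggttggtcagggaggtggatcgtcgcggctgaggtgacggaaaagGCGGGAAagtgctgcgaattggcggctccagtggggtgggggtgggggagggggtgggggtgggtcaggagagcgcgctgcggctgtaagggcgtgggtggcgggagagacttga
Mlh3: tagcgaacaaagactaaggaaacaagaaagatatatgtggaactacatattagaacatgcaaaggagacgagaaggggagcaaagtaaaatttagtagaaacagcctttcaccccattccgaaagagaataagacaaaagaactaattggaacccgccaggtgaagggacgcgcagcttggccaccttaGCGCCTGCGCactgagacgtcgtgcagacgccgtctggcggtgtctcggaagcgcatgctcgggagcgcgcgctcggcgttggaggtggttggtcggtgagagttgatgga

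The motifs searched on both strands were the E-box CACGTG, which 7.15% of the 32851 promoters in the RefSeq table held, the E2F motif TTCCCGC (4.60%), the CRE motif TGACGTCA (1.79%) and the NRF1 motif of 10 letters (4.60%). The Msh5 promoter held an E2F match, read on the opposite strand, 65 bases before the start, and the Mlh3 promoter held an NRF1 match, also on the opposite strand, 61 bases before the start. A second, overlapping Mlh3 promoter in the table held the same match 69 bases before its own start. The Dmc1, Mei1 and Msh4 windows held none of these letters. In CpG content, the Msh5 promoter held 27 CpG pairs, that of Mlh3 22, that of Dmc1 18, that of Mei1 8 and that of Msh4 6, where the median of all promoters was 7 with quartiles of 3 and 20. These matches describe the sequence and do not show binding. The windows of Mei1 (chr15:82082226-82082525), Msh4 (chr3:153904842-153905141) and Msh5 lay wholly inside the genes' annotated spans. Those spans were chr15:82070074-82126817, chr3:153857141-153906138 and chr17:35028605-35046997. The motif and CpG counts of these genes therefore describe starts within the span, not at its outer end.

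As the check of the labels, Dazl (chromosome 17) was lower on all 4 knockdown arrays than on both controls with either probe. Probe A_51_P246060 gave signals of 36.3 and 48.3 scanner units for hairpins 2 and 1 at day 12, against 1330 in the control, and 24.8 and 23.2 for hairpins 2 and 1 at day 9, against 499 in the control. The log2 difference between knockdown and control was -4.72 ± 0.17 (SE; limma, adjusted p = 0.00464), and it was -4.30 ± 0.29 for probe A_52_P271166, whose adjusted p of 0.0546 in limma missed the threshold of 0.05. The difference was large under every way of processing, but whether a probe passed the threshold depended on it, as given in the last section. Across the whole array, 70.3% to 73.3% of probes were well above background, and each array's 75th percentile of signal lay between 629 and 745.5 scanner units. The values below are log2 signals relative to that percentile, so a positive value lies above that percentile. A probe's level was compared only with itself, since probes differ in how well they bind.

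The main question was whether the recombination genes differ between Dazl knockdown and control cells. With the 4 knockdown arrays set against the 2 controls and day as a term, 9 of the 10 member probes were lower and 1 was higher, but under the normexp background correction 4 were lower and 6 higher. None of the 10 passed the threshold, where 0.00662% of the 30190 probes tested on the array did (2 probes; 2981 had an unadjusted p under 0.05). The median log2 difference of the 10 was -0.28, against -0.02 over all probes tested, and under normexp it was 0.07, against 0.12. Counted from that normexp median of all probes instead of from 0, 6 of the 10 were below and 4 above. Unadjusted p under 0.05 together with a lower level was met by 2 member probes, those of Tex11 and Mlh3 (A_52_P413661), against 5.53% of all probes. Lower values in all 4 comparisons of a knockdown array with its day's control were found for 4 of the 10 (Dmc1, Msh5 A_51_P429865, Tex11 and Mlh3 A_52_P413661), against 19.1% of all probes. Every knockdown array lay below both controls for 3 of the 10, against 11.9% of all probes.

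**Figure D1:**
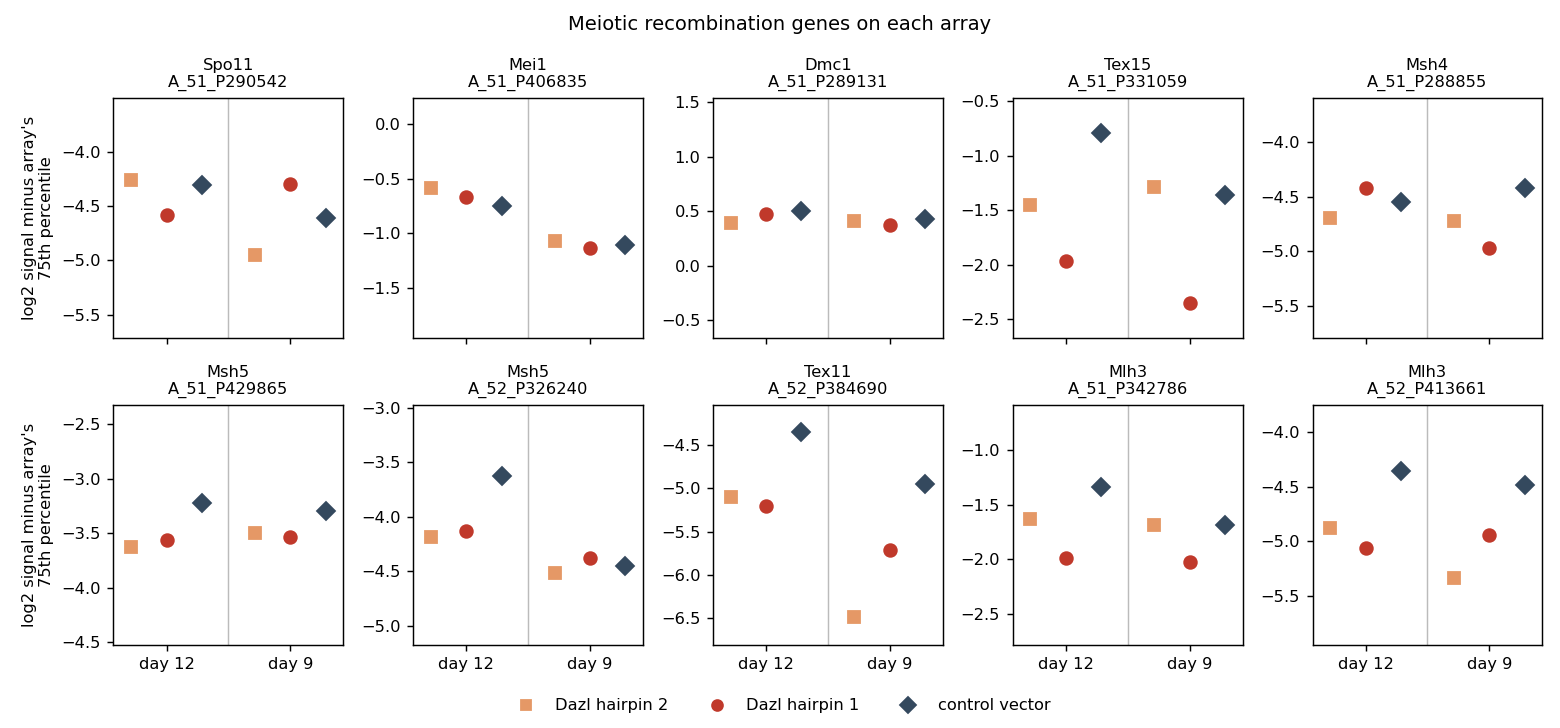
Log2 signal minus the array's 75th percentile (vertical axis, each panel on its own range of at least 2.2 log2 units) for the 10 member probes on each of the 6 arrays, at day 12 and day 9, with hairpin 2 as squares, hairpin 1 as circles and the control vector as diamonds. Dmc1 lies between 0.37 and 0.50 on all arrays, Mei1 is higher on all day 12 arrays, and the Tex11 controls, at -4.35 and -4.95, lie above the knockdown arrays, at -5.10 to -6.49.

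Spo11 (chromosome 2) encodes the enzyme that makes the breaks. Its tested probe (A_51_P290542) gave log2 values of -4.26 and -4.58 for hairpins 2 and 1 at day 12, against -4.31 in the control, and -4.95 and -4.30 for hairpins 2 and 1 at day 9, against -4.61 in the control. The knockdown and control values overlapped, and the day 9 hairpins lay on either side of their control. The log2 difference was -0.07 ± 0.23 (SE; limma, adjusted p = 0.954) with a 95% interval of -0.62 to 0.49, and it was 0.19 under normexp. The signal was 24.1 to 35.4 scanner units throughout. The second Spo11 probe, at 1.85 to 7.07 scanner units, was not well above background in any group, so it gives no fold.

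Mei1 (chromosome 15) encodes a protein needed for break formation in mouse meiosis. It read -0.59 and -0.66 for hairpins 2 and 1 at day 12, against -0.75 in the control, and -1.07 and -1.13 for hairpins 2 and 1 at day 9, against -1.11 in the control. The vectors lay close together within each day, and the 2 days did not overlap. Knockdown differed from control by 0.07 ± 0.14 (SE; limma, adjusted p = 0.911), with a 95% interval of -0.26 to 0.40. Mei1 was the 1 member probe with a higher mean in knockdown cells in this fit. Its signal was 291 to 432 scanner units, and under normexp the difference was 0.11.

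Dmc1 (chromosome 15), the meiosis-specific strand exchange protein, had the narrowest range of the 10 probes. It read 0.39 and 0.48 for hairpins 2 and 1 at day 12, against 0.50 in the control, and 0.41 and 0.37 for hairpins 2 and 1 at day 9, against 0.43 in the control. Each knockdown array was slightly below its day's control, but the 2 groups overlapped. The 4 knockdown arrays averaged 0.41 ± 0.05 (SD, n = 4) and the 2 controls 0.47 ± 0.05 (SD, n = 2), and the log2 difference was -0.05 ± 0.13 (SE; limma, adjusted p = 0.935). Its 95% interval was -0.38 to 0.28, so changes of that size in either direction are not excluded, and normexp gave -0.06. The signal was 834 to 993 scanner units.

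Tex15 (chromosome 8), which is needed to load the strand exchange proteins, was lower in 3 of 4 comparisons. It read -1.45 and -1.97 for hairpins 2 and 1 at day 12, against -0.79 in the control, and -1.29 and -2.35 for hairpins 2 and 1 at day 9, against -1.36 in the control. By these log2 values, hairpin 1 cells held 44.2% of the control signal at day 12 and 50.5% at day 9. Hairpin 2 cells held 63.3% at day 12 and 105% at day 9. The groups overlapped through the hairpin 2 array of day 9, which lay above its own control. The log2 difference was -0.69 ± 0.34 (SE; limma, adjusted p = 0.569), with a 95% interval of -1.51 to 0.13, and it was also below 0 under normexp, at -0.43.

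Msh4 (chromosome 3) and Msh5 (chromosome 17) encode the partners that stabilise joined DNA molecules. Msh4 read -4.70 and -4.42 for hairpins 2 and 1 at day 12, against -4.54 in the control, and -4.72 and -4.97 for hairpins 2 and 1 at day 9, against -4.42 in the control. Hairpin 1 lay above its control at day 12 and below it at day 9, and the difference of -0.22 ± 0.18 (SE; limma, adjusted p = 0.736) turned to 0.23 under normexp. Msh5 probe A_51_P429865 read -3.62 and -3.56 for hairpins 2 and 1 at day 12, against -3.22 in the control, and -3.50 and -3.53 for hairpins 2 and 1 at day 9, against -3.30 in the control. All 4 knockdown arrays lay below both controls, and they lay close together. The log2 difference was -0.30 ± 0.14 (SE; limma, adjusted p = 0.550), and under normexp it was 0.00.

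The other tested Msh5 probe, A_52_P326240, differed from the first in which array stood out. It read -4.19 and -4.13 for hairpins 2 and 1 at day 12, against -3.63 in the control, and -4.52 and -4.38 for hairpins 2 and 1 at day 9, against -4.45 in the control. The day 12 control was the highest array, and at day 9 the hairpins lay on either side of their control. Its log2 difference was -0.26 ± 0.18 (SE; limma, adjusted p = 0.669), 0.12 under normexp and 0.00 without the day 12 control. The third Msh5 probe, at 1.71 to 3.09 scanner units, was not well above background in any group.

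Tex11 (X chromosome), which promotes crossover formation, had the most negative log2 difference of the 10 probes in the fit on processed signal, though not under normexp. It read -5.10 and -5.21 for hairpins 2 and 1 at day 12, against -4.35 in the control, and -6.49 and -5.71 for hairpins 2 and 1 at day 9, against -4.95 in the control. In scanner units the signals, with the scanner's own error estimate, were 18.5 ± 2.25 and 18.5 ± 2.23 for hairpins 2 and 1 at day 12, against 34.4 ± 3.63 in the control. They were 8.27 ± 1.46 and 12.5 ± 1.75 for hairpins 2 and 1 at day 9, against 20.3 ± 2.33 in the control. All 4 knockdown arrays lay below both controls, and by the log2 values the knockdown arrays held 34.4% to 59.2% of their day's control signal. These shares are relative to each array's percentile and were not taken from the scanner units. The knockdown arrays averaged -5.63 ± 0.63 (SD, n = 4) and the controls -4.65 ± 0.43 (SD, n = 2). The log2 difference was -0.98 ± 0.25 (SE), with a 95% interval of -1.58 to -0.38, an unadjusted p of 0.00737 and an adjusted p of 0.366 in limma.

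The Tex11 difference depended on how background was removed. With normexp and an offset of 50, the log2 difference was 0.04 (95% interval -0.55 to 0.62), or -0.08 relative to the median of all probes in that fit. With normexp and no offset, tried after the data had been seen, it was again 0.04 (95% interval -1.44 to 1.53), an interval that also holds the value on processed signal. That estimate averages -0.35 ± 0.88 at day 12 and 0.44 ± 0.88 at day 9 (SE). Probes spotted at least 5 times on an array had a median SD between spots of 0.17 to 0.27 log2 units at signals of 10 to 50 scanner units, and of 0.07 to 0.09 at signals of 50 to 500. The Tex11 signal for hairpin 2 at day 9, 8.27 scanner units, lay below both ranges.

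Mlh3 (chromosome 12), which acts in resolving joined molecules into crossovers, was measured by 2 probes that differed in brightness. The fainter, A_52_P413661, read -4.88 and -5.06 for hairpins 2 and 1 at day 12, against -4.36 in the control, and -5.34 and -4.94 for hairpins 2 and 1 at day 9, against -4.48 in the control. All 4 knockdown arrays lay below both controls, and the signals were 18.4 to 34.2 scanner units. Its log2 difference was -0.64 ± 0.17 (SE), with an unadjusted p of 0.00985 and an adjusted p of 0.390 in limma, and under normexp it was 0.12. The brighter probe, A_51_P342786, read -1.63 and -1.98 for hairpins 2 and 1 at day 12, against -1.34 in the control, and -1.68 and -2.03 for hairpins 2 and 1 at day 9, against -1.69 in the control. Here the groups overlapped: hairpin 2 was level with the day 9 control at day 9 and slightly above it at day 12. The log2 difference was -0.32 ± 0.19 (SE; limma, adjusted p = 0.635), and -0.20 under normexp.

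**Figure D2:**
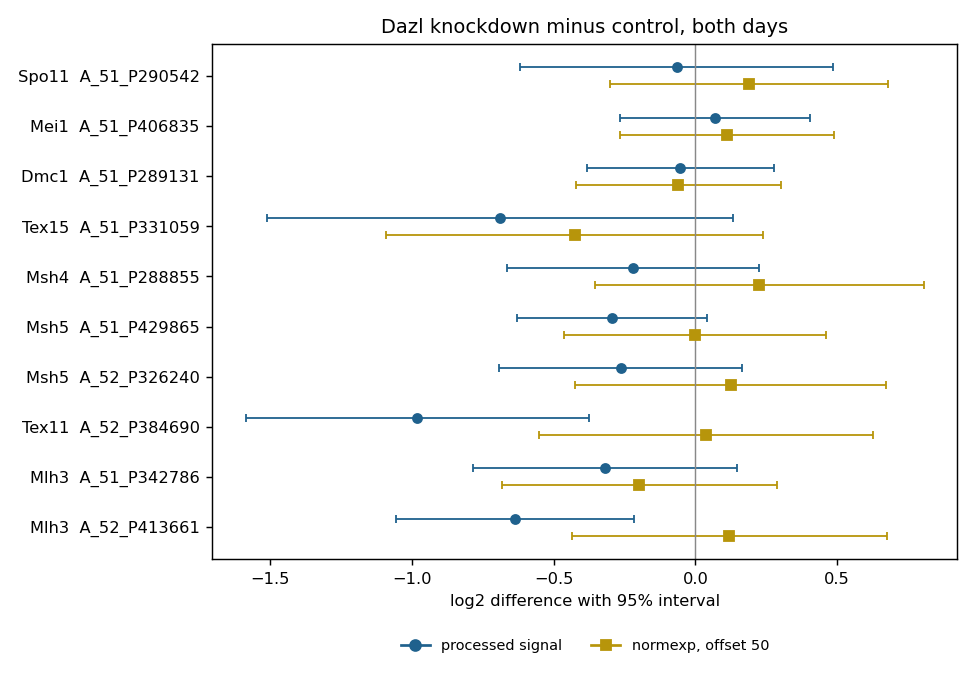
Log2 difference between knockdown and control over both days (horizontal axis, point with 95% interval from limma) for the 10 member probes, from the processed signal (circles) and after normexp with an offset of 50 (squares). On processed signal 9 points lie below 0, and the Tex11 and fainter Mlh3 intervals exclude 0. Under normexp, where the median of all probes was 0.12, 4 points lie below 0 and every interval includes it.

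Within each day the same comparison rests on 1 control array, and its spread comes from the hairpin pairs. At day 12 the member differences ran from -0.92 for Tex15 to 0.13 for Mei1, with a median of -0.42, none was called, and 0% of all probes were called (1390 of them had an unadjusted p under 0.05). At day 9 they ran from -1.15 for Tex11 to 0.01 for Mei1, with a median of -0.19, again with none called against 0% of all probes (1148 with an unadjusted p under 0.05). Under normexp the member median was -0.10 at day 12, with 7 of 10 lower, and 0.16 at day 9, with 3 of 10 lower, where the median of all probes was 0.05 at day 12 and 0.19 at day 9. Tex11 differed by -0.81 ± 0.38 at day 12 and by -1.15 ± 0.38 at day 9 (SE), but under normexp by -0.12 at day 12 and by 0.20 at day 9. The change of the knockdown difference between the days, day 12 minus day 9, lay between -0.53 (Msh5 A_52_P326240) and 0.41 (Msh4), with 6 of 10 below 0 and a median of -0.07. Under normexp 9 of 10 were below 0 with a median of -0.32, against -0.15 over all probes, and Msh4 turned to -0.21 and Tex11, at 0.34 on processed signal, to -0.32. No member was called in that test, nor was any other probe (0% called; 456 with an unadjusted p under 0.05).

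The labels also give time. Between day 12 and day 9, 9 of the 10 member probes were higher and 1 lower, whereas under normexp 4 were higher and 6 lower; none passed the threshold, against 0.0563% of all probes (17 probes; 3220 with an unadjusted p under 0.05). The median log2 difference was 0.20, against 0.00 over all probes, and under normexp it was -0.12, against -0.14. Counted from that normexp median of all probes instead of from 0, 6 of the 10 were above and 4 below. Higher values at day 12 with all 3 vectors were found for 4 of the 10 (Mei1, Msh5 A_52_P326240, Tex11 and Mlh3 A_51_P342786), against 20.4% of all probes. Each day was 1 slide scanned once, and the effect of day cannot be told apart from that of the slide.

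Mei1 was higher at day 12 with every vector, by 0.48 with hairpin 2, 0.47 with hairpin 1 and 0.36 in the control. The 3 arrays averaged -0.67 ± 0.08 at day 12 and -1.11 ± 0.03 at day 9 (SD, n = 3 each). The log2 difference was 0.44 ± 0.13 (SE; limma, adjusted p = 0.313), a fold of 1.35, and 0.33 under normexp. Tex11 was higher at day 12 by 1.39 with hairpin 2, 0.50 with hairpin 1 and 0.61 in the control. Its log2 difference of 0.83 ± 0.23 (SE; limma, adjusted p = 0.291) turned to -0.12 under normexp. Msh5 probe A_52_P326240 differed by 0.46 ± 0.17 (SE; limma, adjusted p = 0.401) and by -0.12 under normexp. Dmc1 differed by 0.05 ± 0.13 (SE), with a 95% interval of -0.26 to 0.36.

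**Figure D3:**
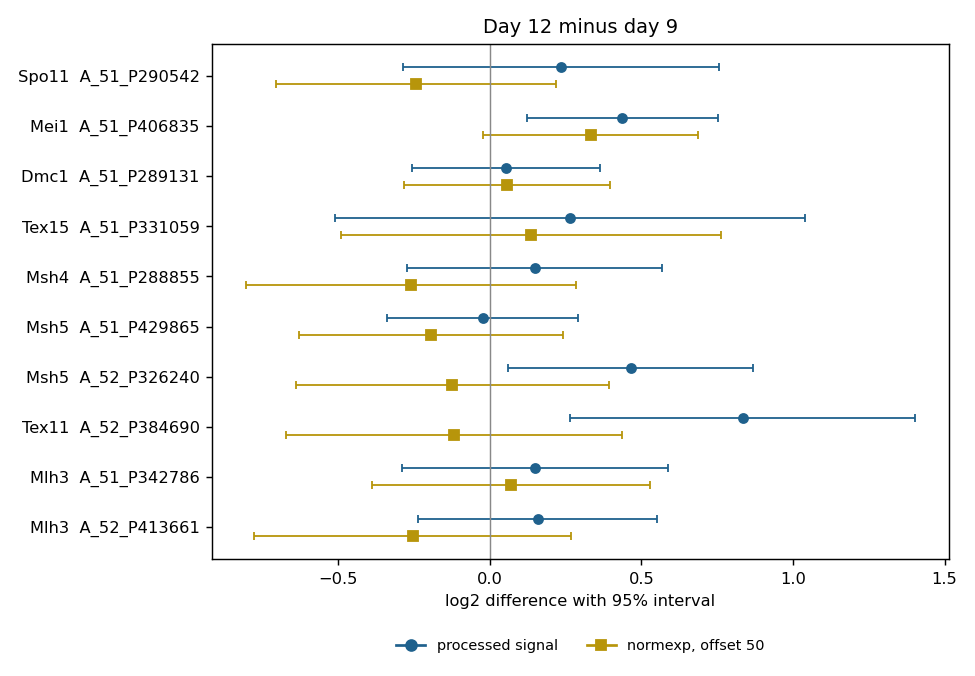
Log2 difference between day 12 and day 9 (horizontal axis, point with 95% interval from limma) for the 10 member probes, from the processed signal (circles) and after normexp with an offset of 50 (squares). The intervals of Mei1, Tex11 and Msh5 A_52_P326240 exclude 0 on processed signal. Under normexp every interval includes 0, with the Tex11 and Msh5 A_52_P326240 points below it, where the median of all probes was -0.14.

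Between the hairpins, Tex15 differed most. It was higher with hairpin 2 than with hairpin 1 on both days, at -1.45 against -1.97 at day 12 and -1.29 against -2.35 at day 9. The log2 difference, hairpin 2 minus hairpin 1, was 0.79 ± 0.23 (SE; limma, adjusted p = 0.341), a fold of 1.73. The other member probes differed by -0.34 (Tex11) to 0.35 (Mlh3 A_51_P342786) between the hairpins. In all, 3 of the 10 were higher and 7 lower with hairpin 2, whereas under normexp 9 were higher and 1 lower, with a member median of 0.39 against 0.21 over all probes. No member was called, against 0.00331% of all probes (1 probe; 3220 with an unadjusted p under 0.05). The hairpins took the same places on both slides, so vector and place cannot be told apart.

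The other genes of the pathway were read on the brightest probe of each, from lists arranged by role. Of 41 genes on the array 39 were tested; 29 were lower and 10 higher in knockdown cells, 0 were called in limma in either direction, 2 had an unadjusted p under 0.05, and the median log2 difference was -0.14. Over all probes, 2981 of 30190 had such a p and 0.00662% were called. Under normexp the split was again 29 lower and 10 higher, with a median of -0.11. Among genes of break formation and the chromosome axis, all 3 tested were lower, with Hormad1 at -0.25 ± 0.24 and Hormad2 at -0.17 ± 0.18 (SE), both proteins of the unpaired axis. Mei4 and Prdm9 did not pass the filter on background. Among 5 end processing genes 4 were lower, with the exonuclease Exo1 at -0.32 ± 0.17 and Rad50, of the complex that trims break ends, at -0.22 ± 0.25. Of 14 strand exchange genes 9 were lower and 5 higher, with the recombination repair gene Xrcc3 at 0.35 ± 0.17 and the single-strand binding subunit Rpa2 at -0.29 ± 0.19. Of 10 crossover genes 7 were lower, with Ccnb1ip1, a regulator of crossover sites, at -0.44 ± 0.15 and the helicase Hfm1 at -0.42 ± 0.18. Of 7 checkpoint genes 6 were lower, with Hus1b at -0.63 ± 0.14 (adjusted p = 0.316 in limma) and Rad1 at -0.27 ± 0.19, whose proteins belong to a clamp that signals DNA damage.

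**Figure D4:**
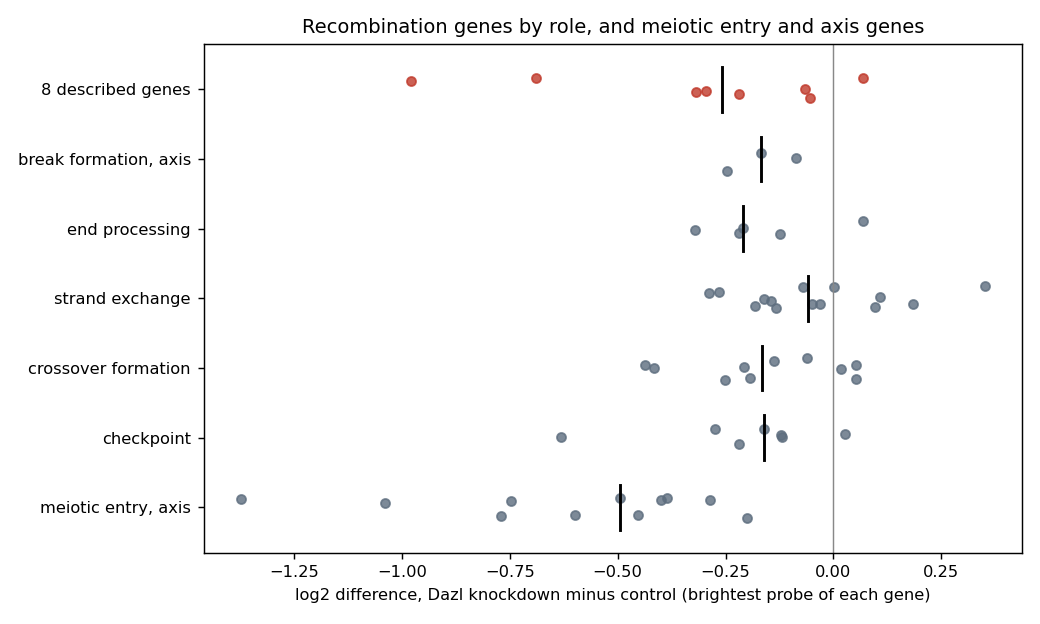
Log2 difference between knockdown and control on processed signal (horizontal axis) for the brightest tested probe of each gene, 1 point per gene, by role (rows), with a black bar at each list's median; the vertical spread within a row has no meaning. The medians are -0.26 for the 8 genes (0.02 under normexp), -0.06 for strand exchange and -0.49 for the list headed meiotic entry and axis. That list also holds other meiotic genes, and no gene shown passed the threshold.

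Lists of marker genes were read in the same fit, and 0 of their genes were called, where 0.00662% of all probes were. The list headed meiotic entry and axis held 11 genes, among them Stra8 and Rec8. It also held genes of the complex between paired chromosomes, such as Sycp1, and Tex101, which belongs under neither heading. All 11 were lower in knockdown cells on processed signal and under normexp. On processed signal their median log2 difference was -0.49, and 7 of the 11 had an unadjusted p under 0.05 in limma, against 2981 of the 30190 probes. Their summed signal, in multiples of the 75th percentile, was 209 and 246 for hairpins 2 and 1 at day 12, against 307 in the control, and 119 and 148 for hairpins 2 and 1 at day 9, against 235 in the control. Both hairpins were below their control on each day. For 11 germ cell markers, 10 were lower with a median of -0.32, and all 11 were above background on every array. Their sum was 37.5 to 43.8 in knockdown cells and 53.6 and 55.2 in control cells. Dazl, the target of the hairpins, is among the 11, so its own fall enters the count, the median and the sum. Its probe in this list read 79.3 to 178 scanner units in knockdown cells, against 1570 and 4190 in control cells.

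Of 11 tested endoderm markers 10 had a higher mean in knockdown cells, with a median log2 difference of 0.83. Among the 10, Cer1 was well above background on 2 arrays only, those of hairpin 2. Its signals there were 38.5 scanner units at day 12 and 12.5 at day 9, against 1.86 and 1.42 in the controls. Cer1 thus passed the filter only through arrays where it was high, so its direction is no separate evidence. Over 12 endoderm markers the sum was 2.82 and 3.53 for hairpins 2 and 1 at day 12, against 1.61 in the control, and 2.30 and 3.58 for hairpins 2 and 1 at day 9, against 1.81 in the control. On each array 10 or 11 of the 12 were above background, and Ttr was above it on none. Of 12 fibroblast and feeder markers all had a higher mean in knockdown cells. The median was 0.76 on processed signal and 0.45 under normexp, where that of all probes was 0.12. Not every pair followed: Pdgfra was lower than its control in 2 comparisons. Lox was well above background on 3 arrays, all of them knockdown arrays, and read 1.93 and 4.08 scanner units in the controls. Its direction is therefore no separate evidence. The sum of the 12 markers was 8.77 and 5.34 for hairpins 2 and 1 at day 12, against 3.40 in the control, and 9.64 and 7.54 for hairpins 2 and 1 at day 9, against 7.13 in the control. In both of these lists the hairpin sums were above their control on each day. The part of these shifts in the recombination gene values was not tested.

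The genes whose profile over the 6 arrays lay nearest to a member's were sought among 2220 genes with an SD of at least 0.5. Nearest to Tex11, by the root mean square difference of centred log2 profiles, were Mov10l1 (0.12), Hoxb4 (0.14) and Dnajb3 (0.15). Nearest to Tex15 were Abcc2 (0.11), Rflnb (0.15) and 9130023H24Rik (0.16). The other 6 genes had an SD over the arrays of 0.05 to 0.27 on their brightest probe, below that of every candidate, and their nearest candidates lay 0.24 to 0.43 away, so these are not named.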

How the data were processed

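RNA of 6 samples was labelled with Cy3 and hybridised to Agilent whole-genome arrays, 1 array per sample. Per the file headers, the authors' scanner files hold an intensity value per spot as Agilent Feature Extraction gave it, with background subtracted and no normalization between arrays. The authors' deposited table holds a ratio, each signal over a constant of its array, and all 41529 of its entries matched 1 spot each at a tolerance of 1e-06. A deposited quality score served only for that match.

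Processed intensities were taken to log2 and each array's 75th percentile set to 0. Spots of a probe were averaged, after 36 values marked as outliers were left out. Probes well above background on at least 2 arrays were kept (30214), and the 30190 with a value on all 6 arrays were tested with limma 3.58.1 in R 4.3.3, two-sided, with Benjamini-Hochberg adjustment over all of them and a threshold of 0.05. Against RefSeq (GRCm38.p6), 22951 probes were named by accession and 9755 by symbol or synonym, while 8468 kept only the array's name. The code was tested on simulated data.

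The knockdown and day fits held both terms; a fit with 4 group means gave each day's effect and its change, on the assumption that single controls vary as the paired hairpins do; the hairpins were compared in a model of day plus vector. Day is the slide block. The labels do not name separate cultures, so p-values cover only the spread between these samples, and the number of arrays limits precision. Arrays of 1 vector deviated together across days (r across probes of 0.37, 0.50 and 0.24, where the shared mean pushes other pairs below 0). The vector was also fitted as a replicate block, with a term for each hairpin. That fit takes the difference between the hairpins out of the spread, so it cannot show how far vectors vary. Other alternatives were normexp on mean and background signals, quantile normalization, other filters, a trended robust prior, the authors' table, 1 probe per gene and each array left out. Hairpins are numbered by the sample titles and descriptions; the deposited files' own names number them differently.

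The 8 genes, the role and marker lists and the tests were chosen with earlier results of these data known. Every member probe is named, with Dazl as a label check, pathway genes that pass or are among the 2 of each role with the largest knockdown difference, and the 3 genes nearest in profile to a member where one came near; marker genes named as examples were picked from their lists.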

Additional observations from a re-analysis of the deposited data

How the results depend on the processing

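No member probe was called in any of the 808 member tests under the alternatives (lowest adjusted p = 0.0502 in limma, for Tex15 between the hairpins without 1 array). Values of faint probes depended on background removal, and the cause was not tested further. Under normexp the knockdown difference turned to 0.19 for Spo11, 0.23 for Msh4, 0.12 for Msh5 A_52_P326240, 0.037 for Tex11 and 0.12 for Mlh3 A_52_P413661, and the day difference to -0.24, -0.26, -0.12, -0.12 and -0.26 for the same 5 probes. Under normexp with no offset, an alternative chosen after seeing the data, the knockdown differences were 0.36, 0.45, 0.26, 0.042 and 0.22 and the day differences -0.44, -0.46, -0.18, -0.16 and -0.48 for these probes, and Msh5 A_51_P429865 turned to 0.0014 for the knockdown. Under normexp the median of all probes was 0.12 for the knockdown, -0.14 for day and 0.21 between the hairpins, against -0.02, 0.00 and 0.01 on processed signal. The member median for the knockdown was 0.075 under normexp and 0.090 with no offset, and for day -0.12 and -0.17. In the authors' table the Dmc1 day difference was -0.0090.

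With 1 array left out in turn, the member median ranged between -0.42 and -0.19 for the knockdown (-0.42 without the day 9 control) and between 0.16 and 0.31 for day. The Tex11 knockdown difference ranged between -1.15 and -0.79, that of Tex15 between -0.95 and -0.46 and that of the fainter Mlh3 probe between -0.72 and -0.55. The Spo11 knockdown difference ranged between -0.21 and 0.066 (0.066 without hairpin 2 at day 9, 0.0085 without hairpin 1 at day 12), that of Msh5 A_52_P326240 between -0.53 and 0.0034 (without the day 12 control), and the day difference of Msh5 A_51_P429865 between -0.075 and 0.0071 (0.0007 without hairpin 2 at day 9, 0.0071 without hairpin 2 at day 12). The hairpin difference of Tex15 ranged between 0.47 and 1.11.

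Counts of probes called over the whole array moved more. For the knockdown (2 probes) the count was 4 with the vector as a replicate block, 0 with 1 probe per gene, 0 under normexp with no offset, and 0 to 1 with an array left out. For day (17 probes) it was 245 with the vector as a replicate block, 30 with 1 probe per gene, 10 with quantile normalization, 4 with the trended robust prior, 1 under normexp, 0 with no offset, 0 with no filter, and 0 to 3 with an array left out. Between the hairpins (1 probe) it was 91 under normexp, 0 with no offset, 3 with probes above background on all 6 arrays, 0 with no filter, 30 with the trended robust prior, 4 in the authors' table, 14 with 1 probe per gene, and 0 to 1109 with an array left out. In the authors' table it was 1 at day 9, 2 at day 12 and 1 for their difference, against 0 each. The vector as a replicate block changed no member's call, though that fit leaves the difference between the hairpins out of the spread.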
